A study of Zea mays with 6 samples.

Results

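Anthocyanins are the red and purple flavonoid pigments that colour the maize kernel. Chalcone synthase starts the flavonoid skeleton, later enzymes convert it to coloured anthocyanidins, and a glucosyltransferase attaches a sugar that stabilises the pigment before transport to the vacuole. The enzyme genes are switched on together by a MYB protein (c1 or pl1), a basic helix-loop-helix protein (r1 or b1) and a WD40-repeat protein (pac1). Which gene of each pair acts differs between tissues, such as the aleurone, the outer cell layer of the endosperm.

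The genes described here are 4 of the 49785 rows of the deposited count table, taken by identifier. They are c2 (LOC100274415), a chalcone synthase gene, a2 (LOC100127010), a leucoanthocyanidin dioxygenase gene, bz1 (LOC732800), an anthocyanidin 3-O-glucosyltransferase gene, and LOC100285351, which the table describes as pale aleurone color 1. RNA came from whole kernels with the pericarp peeled off, taken 13 days after pollination from field-grown plants, in 3 libraries of WT and 3 of the homozygous mutant, labelled Shrek1-/-. The inbred line, its colour alleles, the nature of the mutant allele and whether the replicates or genotypes shared ears are not given in the sources used here. The p-values therefore measure the spread between these libraries, which may be technical. The libraries held 17145006 to 20288565 counts. Levels are given as CPM, each library's counts scaled to a common total after adjustment between libraries with TMM factors, and 3 counts, the limit that a count of 0 allows, amounted to 0.141 to 0.185 CPM.

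The name of 1 of the 4 genes went against its own annotation. LOC100285351 lies on chromosome 5 at 204512915 to 204516710, minus strand, with 548 bases of annotated transcript length. The deposited table gives it no Swiss-Prot match and a Tim10/DDP family zinc finger, the domain of the small TIM chaperones that escort proteins across the space between the mitochondrial membranes. Its neighbour on the same strand, LOC103627556 (chromosome 5, 204507729 to 204512169), lies 745 bases away and is described as TRANSPARENT TESTA GLABRA 1, the Arabidopsis WD40-repeat regulator of flavonoid genes. The RefSeq table (Zm-B73-REFERENCE-NAM-5.0) lists the symbol pac1 as a synonym of both genes, and WD40.1 as a synonym of LOC103627556 alone. LOC100285351 is therefore called by its identifier below, and LOC103627556 the WD40-type pac1 gene.

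The other members carried Swiss-Prot matches that go with their symbols. The gene c2 lies on chromosome 4 at 198742465 to 198745752, plus strand, a2 on chromosome 5 at 68086720 to 68088262, plus strand, and bz1 on chromosome 9 at 13120406 to 13122158, minus strand. None of the 4 genes overlapped another gene of the table. Coordinates are those of the deposited table, whose build is not given in the labels, and they equal the RefSeq entries except for the end of bz1.

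The comparison asked how the mRNA of the mutant kernels differed from that of WT. The enzyme genes c2 and a2 were low in WT and close to absent in shrek1, bz1 was low in both genotypes, and LOC100285351 was well expressed and several times higher in shrek1. In edgeR (quasi-likelihood, p adjusted over all genes by Benjamini-Hochberg), c2 and a2 fell, LOC100285351 rose and bz1 did not pass the threshold of 0.05. All 4 genes passed the filter on low counts. Of 22681 genes in the fit 64.4% were called, with 32% higher in shrek1 and 32.4% lower, so a call in itself did not set a gene apart. With library size as the only scaling, the share of calls that were higher went from 49.7% to 34%. The levels of the genotypes did not overlap for 3 of the 4 genes, against 70% of all tested genes.

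**Figure D1:**
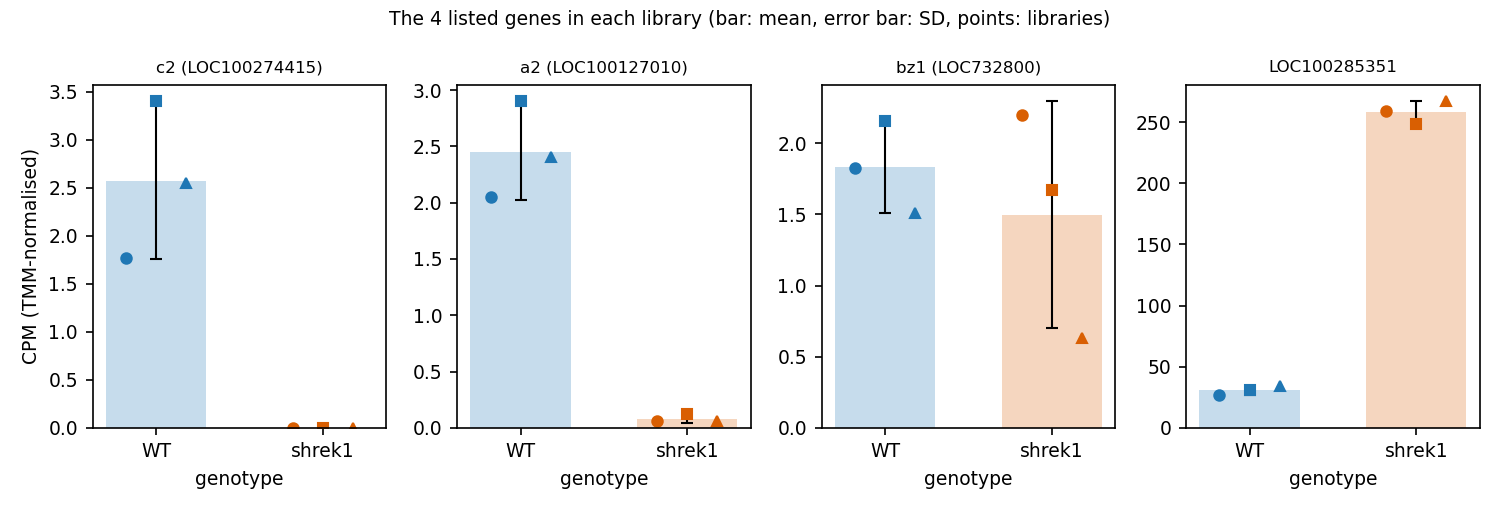
TMM-normalised CPM of the 4 listed genes by genotype, 1 panel per gene with its own axis from 0; bars are means, error bars SD (n = 3) and points single libraries (circle, square and triangle for replicates 1, 2 and 3). The genotypes are separate for c2, a2 and LOC100285351 and overlap for bz1.

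The gene c2 encodes the chalcone synthase active in the kernel, the entry enzyme of the pathway. It had 32, 68 and 54 counts in WT replicates 1 to 3, which is 1.77, 3.41 and 2.55 CPM, and no count in any shrek1 library. All WT libraries were above the limit of 3 counts and all shrek1 libraries below it. Against that limit taken per library, the mean level was at least 14.6-fold lower in shrek1 (edgeR adjusted p = 4.59e-05). The other maize chalcone synthase gene of the pathway, whp1 (LOC100282642), had no count in WT and 2 counts in shrek1 replicate 2, so no library of either genotype reached the limit.

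The gene a2 encodes the dioxygenase that turns colourless leucoanthocyanidins into anthocyanidins. It had 37, 58 and 51 counts in the WT libraries and 1, 2 and 1 in those of shrek1, or 2.05, 2.90 and 2.41 CPM against 0.0579, 0.124 and 0.0571 CPM. Every WT library was well above every shrek1 library. The ratio of normalised totals, WT over shrek1, was 31.4, with a 95% counting interval of 12.0 to 117. The fitted log2 fold change was -4.85 ± 0.50 (SE; edgeR adjusted p = 1.29e-05).

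The gene bz1 encodes the glucosyltransferase that adds glucose to anthocyanidins, and loss of its function gives bronze kernels. The WT libraries held 33, 43 and 32 counts of it and the shrek1 libraries 38, 27 and 11. The corresponding levels were 1.83, 2.15 and 1.51 CPM for WT, with 2.20, 1.67 and 0.628 CPM for shrek1. Replicate 1 of shrek1 was the highest of all 6 libraries and replicate 3 the lowest, so the spread within shrek1 was wider than the gap between the means of 1.83 ± 0.322 and 1.499 ± 0.799 CPM (SD, n = 3 each). The log2 fold change was -0.29 (edgeR adjusted p = 0.579) with a 95% interval from -1.25 to 0.67, which does not show that the level was the same. Without shrek1 replicate 3 it stood at 0.093 (adjusted p = 0.834).

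The shrek1 libraries also differed among themselves in other genes. Replicate 3 lay apart on the second principal component of all tested genes, which held 4.12% of the variance, at -47.8 beside 15.1 and 30.1. In shrek1, 5 of 6 counted marker genes of the basal endosperm transfer layer were highest in replicate 1 and lowest in replicate 3. This layer is the nutrient uptake tissue at the kernel base, and bz1 had the same order. Genes outside this layer had that order too. Among them were esr1 of the embryo-surrounding region, with 48, 28 and 7 counts in shrek1 replicates 1 to 3, and LOC103627556, at 12.2, 10.2 and 9.77 CPM. The share of all tested genes with that order was not counted, so the order does not set this layer or bz1 apart. Some markers of other tissues were highest in replicate 3, among them the aleurone genes nkd1 and nkd2. In replicates 1 to 3, nkd1 was at 331, 340 and 461 CPM and nkd2 at 184, 161 and 255 CPM. The aleurone genes sal1 (133, 126 and 130 CPM), cr4 (10.6, 12.4 and 11.0 CPM) and dek1 (65.4, 65.6 and 60.1 CPM) were not. The starchy endosperm gene bt1 was highest in replicate 3, at 3341, 3046 and 4364 CPM in replicates 1 to 3. The transfer layer gene betl2 had 364, 161 and 40 counts in shrek1 replicates 1 to 3, while the regulator gene mrp1 had 163, 97 and 471. The part of these differences in the spread of bz1 was not tested.

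LOC100285351 had 489, 623 and 729 counts in WT and 4479, 4027 and 4674 in shrek1. In CPM it stood at 27.1, 31.2 and 34.4 in WT and at 259, 249 and 267 in shrek1. The lowest shrek1 library was several times above the highest WT library. The mean went from 30.9 ± 3.66 to 258 ± 9.10 CPM (SD, n = 3 each), a log2 fold change of 3.06 ± 0.11 (SE; edgeR adjusted p = 2.06e-08) with a 95% interval of 2.82 to 3.30. Its fold change was at percentile 98.8 of all tested genes, and 280 genes, itself included, rose at least as much.

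Per gene length, c2, a2 and bz1 stood close together in WT and apart in shrek1. In deposited FPKM, which divides counts by gene length and library depth, c2 was at 1.46 ± 0.494, a2 at 1.59 ± 0.313 and bz1 at 1.11 ± 0.209 in WT (SD, n = 3), and LOC100285351 at 56.4 ± 7.46. The ranges of c2 and a2 overlapped each other in WT, c2 being the higher of that pair in replicate 2 and the lower in replicates 1 and 3. In shrek1 LOC100285351 was at 462 ± 12.6 FPKM, bz1 at 0.893 ± 0.477, a2 at 0.0507 ± 0.0248 and c2 at 0, and this order was the same in all 3 libraries.

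The change of each gene relative to the others was compared as a log2 ratio of FPKM plus 0.01 within each library, which scaling between libraries hardly moves. The ratio of a2 to bz1 was 0.51 ± 0.25 in WT and -3.79 ± 0.92 in shrek1 (SD, n = 3 each), a difference of -4.30. The ratio of bz1 to LOC100285351 was -5.66 ± 0.37 in WT and -9.18 ± 0.97 in shrek1, a difference of -3.52. All 6 pairs of members separated the genotypes without overlap. Each had a two-sided exact permutation p of 0.1, and 0.1 after Benjamini-Hochberg adjustment over the 6 pairs, which is the smallest that 3 against 3 libraries allow. Ratios that involve c2 in shrek1 rest on the pseudocount of 0.01, since its counts there were 0.

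**Figure D2:**
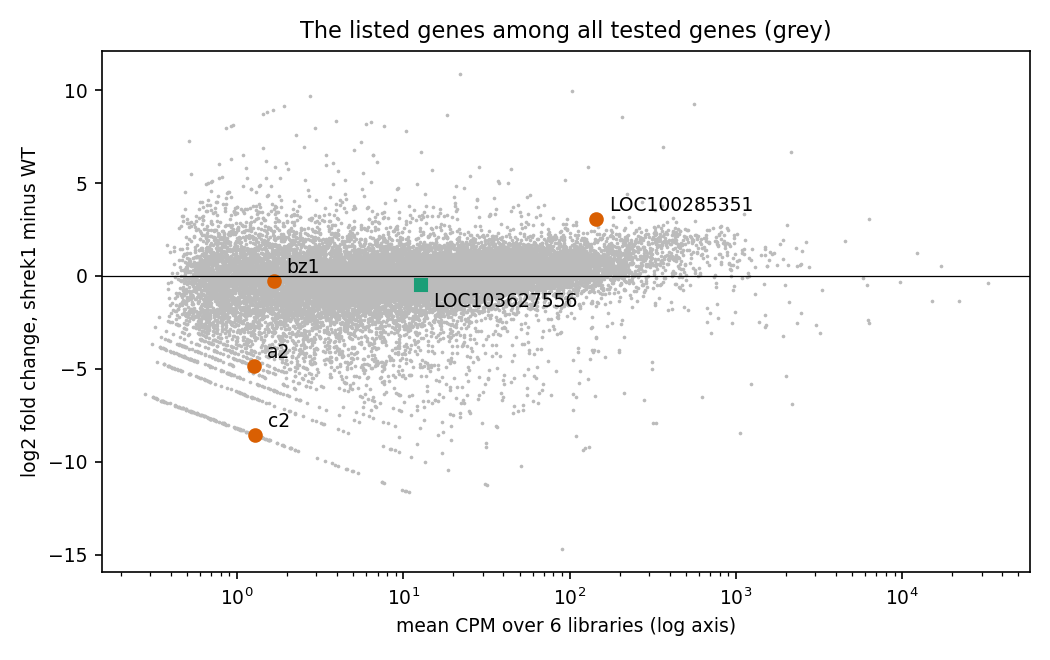
Mean CPM over 6 libraries (log axis) against the log2 fold change, shrek1 minus WT, for the 22681 tested genes in grey, with the 4 listed genes as circles and LOC103627556 as a square. The position of c2, like that of other genes without counts in shrek1 along the lowest diagonal line, depends on the prior count of the fit and is no measure of its fold change.

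The WD40-type pac1 gene fell slightly, in a call that rests on single libraries. LOC103627556 was at 13.4, 16.6 and 14.2 CPM in WT and at 12.2, 10.2 and 9.77 CPM in shrek1. The shrek1 libraries lay below the WT libraries by a narrow margin. Its log2 fold change was -0.46 ± 0.14 (SE; edgeR adjusted p = 0.0167). The call was lost without WT replicate 2 (-0.37, adjusted p = 0.0725), without shrek1 replicate 2 (-0.42, adjusted p = 0.0587) and without shrek1 replicate 3 (-0.39, adjusted p = 0.0585). It was kept without each of the other libraries (-0.55 to -0.60). With all 6 libraries it was kept in every alternative fit, at -0.44 to -0.75. The log2 ratio of LOC100285351 to LOC103627556 in FPKM was 2.44 ± 0.19 in WT and 5.97 ± 0.18 in shrek1, a comparison chosen after the values were seen (difference 3.53, two-sided exact permutation p = 0.1, the smallest possible).

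Genes that share the domain of LOC100285351 were looked up after its annotation had been seen. The table holds 7 genes with a Tim10/DDP family zinc finger, and all 7 were called higher, against 32% of all tested genes, although with an offset for gene length LOC100282321 turned to -0.34 (edgeR adjusted p = 0.0275). For the 6 others the median log2 fold change was 1.14, and 0.42 with the offset for gene length, where 5 were called higher and 1 lower. The Tim9 gene LOC100285519 averaged 61.4 ± 5.99 CPM in WT and 132 ± 5.03 CPM in shrek1 (SD, n = 3 each). The Tim8 gene LOC100284883 was at 1.47 ± 0.11 on the log2 scale (SE), and at 0.70 with the offset. LOC100282321 was at 0.29 ± 0.12. Scaled by library size alone, this gene was not higher in shrek1.

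LOC100285351 is a short gene, and short genes were higher in shrek1 more often than other genes. Of 266 tested genes of 500 to 600 bases, 131 rose (49.2%) and 48 fell, with a median log2 fold change of 0.67 beside -0.014 over all tested genes. Of these short genes, 9 had a fold change at least as large as LOC100285351, itself included. With an offset fitted to gene length in each library, LOC100285351 stood at 2.29 (edgeR adjusted p = 9.44e-08).

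**Figure D3:**
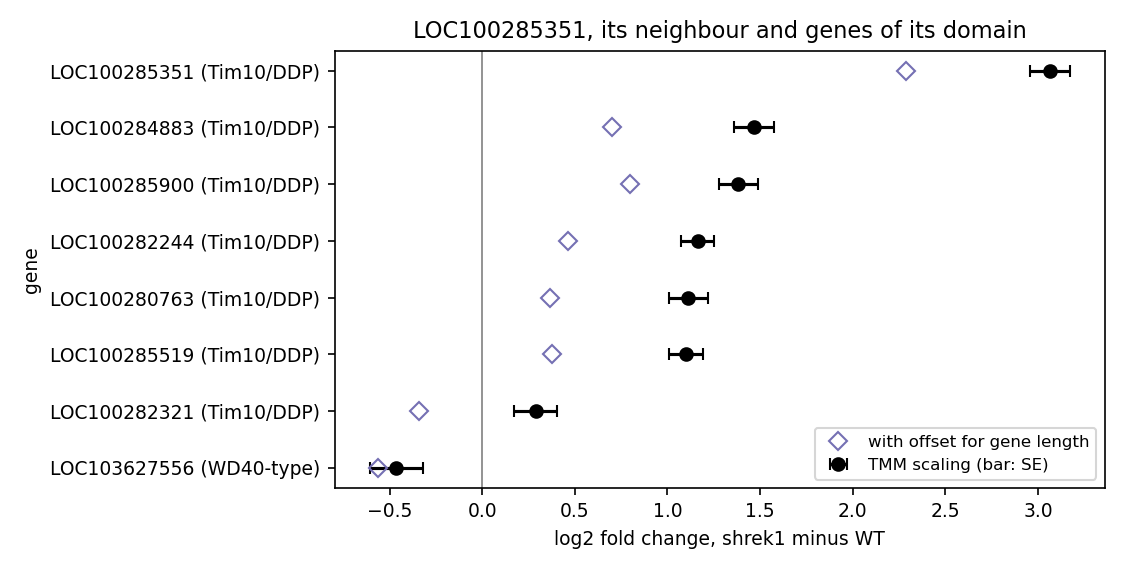
Log2 fold change, shrek1 minus WT, of LOC100285351, the other 6 genes with a Tim10/DDP domain and the neighbouring LOC103627556; filled circles with SE bars are from the TMM-scaled fit and open diamonds from the fit with an offset for gene length. LOC100285351 lies to the right of the other genes at 3.06 and 2.29, and LOC103627556 is below 0 in both fits.

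The remaining genes of the pathway were mostly at the edge of detection. The chalcone isomerase gene chi1 (LOC100276821), whose enzyme closes the ring of the chalcone, had 83, 104 and 73 counts in WT and 85, 101 and 72 in shrek1. The genotypes overlapped, at 4.42 ± 0.897 and 5.09 ± 1.08 CPM (SD, n = 3 each; log2 fold change 0.21, 95% interval -0.32 to 0.73, edgeR adjusted p = 0.466), and the value turned to -0.11 with the offset for gene length and -0.071 with library size as the only scaling. The flavanone 3-hydroxylase gene fht1 (LOC542712) had no count outside shrek1 replicate 1, where it had 3.

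The dihydroflavonol reductase gene a1 (LOC100286107) encodes the enzyme that makes the substrate of the a2 enzyme. This gene had 6, 13 and 23 counts in WT and 1 count in each shrek1 library. It did not pass the filter. The ratio of its normalised totals, WT over shrek1, was 12.0, with a 95% counting interval of 3.85 to 60.7. With no filter on low counts edgeR gave a log2 fold change of -3.42 (adjusted p = 0.00192). The glutathione S-transferase gene bz2 (LOC100502255), needed to carry the pigment into the vacuole, had 0 to 2 counts in every library.

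The transcription factor genes that switch on the enzymes were scarcely counted in either genotype. The MYB gene c1 (LOC541757) had 1 count over the WT libraries and 6, 0 and 1 in shrek1, and pl1 (LOC732799) had none in any library. The bHLH gene r1 (listed as R-S) had 5, 0 and 4 counts in WT and 1, 3 and 7 in shrek1. Each of these genes was thus within a few counts of the limit of detection, and no difference between genotypes was detectable at this depth. Viviparous1 (vp1, LOC542523), which activates c1 in the maturing kernel and is also an embryo gene, was abundant and averaged 107 ± 18.2 CPM in WT and fell to 6.67 ± 1.46 CPM (SD, n = 3 each; edgeR adjusted p = 1.78e-07). No value was looked up for b1 and pr1, whose symbols matched no gene.

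**Figure D4:**
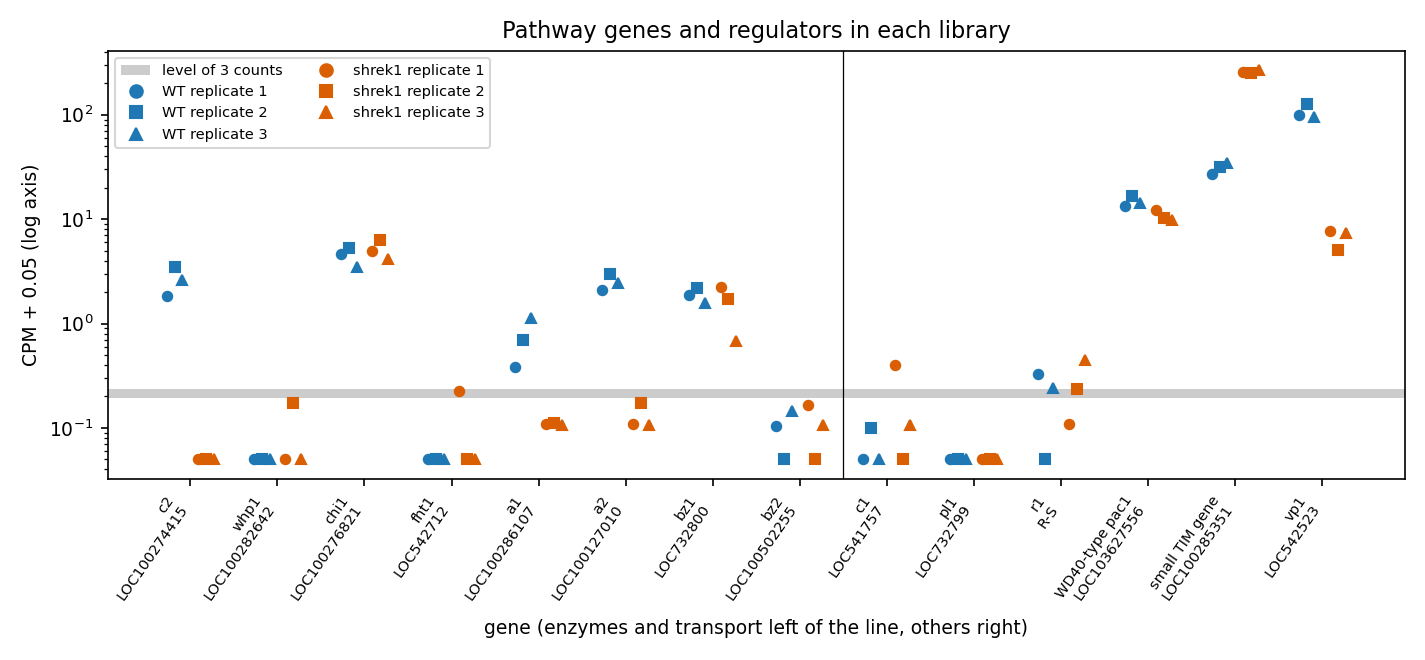
CPM plus 0.05 (log axis) of pathway and regulator genes in each of the 6 libraries, blue for WT and orange for shrek1; the grey band is the level of 3 counts. In shrek1 c2, a1 and a2 lie below the band while chi1 and bz1 lie above it, and whp1, bz2 and pl1 are below it in all libraries.

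A wider list of 112 flavonoid genes, matched by symbol or by words in the description, included many that share only wording with the pathway. Of its 48 tested genes 13 rose (27.1%) and 22 fell (45.8%), beside 32% and 32.4% of all tested genes, and the median log2 fold change was -0.51. Without the 4 members, 12 of 44 rose and 20 fell. Among the 9 tested genes matched by symbol, LOC100285351 rose, chi1 and bz1 did not pass, and 6 fell. The 6 were c2, a2, the embryo gene vp1, the transporter gene mrp4, LOC103627556 and LOC606406. Of these, LOC606406 has a2 only as a synonym and is described as a glycosyltransferase.

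By step of the pathway the list held few tested genes, and differences between steps were not tested; the shares of all tested genes, 32% higher and 32.4% lower, apply to each count. Of 10 tested glucosyltransferase genes 6 fell and 1 rose, LOC103649648, described as anthocyanidin 3-O-glucosyltransferase 2 (log2 fold change 0.57 ± 0.17, SE), which missed the threshold when scaled by library size alone (0.28) and without WT replicate 1 (0.38). Of 6 tested genes with a dihydroflavonol reductase description, 4 rose and 1 fell. The one with the most CPM, LOC100280347, rose by 0.77 ± 0.18 on the log2 scale and has a cinnamoyl-CoA reductase-like protein as its Swiss-Prot match. Of 4 tested chalcone isomerase genes 2 fell, among them LOC100283211 (-3.47 ± 0.22), whose Swiss-Prot match is a fatty-acid-binding protein of the chalcone isomerase fold. Of 5 tested hydroxylase genes 2 fell and 1 rose, and the one with the most CPM, LOC100279597, was at -0.49 ± 0.34 with no call. Leaving out single libraries moved it from -0.81, called without WT replicate 3, to -0.21 without WT replicate 1 (edgeR adjusted p = 0.597). A leucoanthocyanidin dioxygenase-like gene, LOC100284095, was at 1.30 ± 0.0565 FPKM in WT and 1.43 ± 0.155 FPKM in shrek1 (SD, n = 3 each; edgeR adjusted p = 0.380), near the WT level of a2 in both genotypes. With the offset for gene length this gene was called higher, at 0.48 on the log2 scale, and with library size only it stood at -0.12.

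Several further genes fell under the list by name or wording. LOC606406 carries a2 among its synonyms but is described as a glycosyltransferase, and fell by 0.61 on the log2 scale. The transporter gene mrp4 (LOC100125659), known for its part in phytate storage, fell from 474 ± 36.9 CPM in WT to 175 ± 24.5 CPM in shrek1. A WD40 gene matched to the Arabidopsis protein ANTHOCYANIN 11-A, LOC100383192, rose by 0.51 ± 0.10 on the log2 scale, but missed the threshold when scaled by library size alone (0.23). The oxidoreductase pseudogene LOC100282911, listed for its 6'-deoxychalcone synthase match, did not pass, at 6.91 ± 1.03 and 6.24 ± 0.764 CPM. Of 3 tested genes in the side branch of the pathway 2 fell and 1 rose, beside 32.4% lower and 32% higher of all tested genes. The gene that rose, LOC103654690, has an anthocyanidin reductase match but is described as a cohesion protein. Its log2 fold change was 2.30 ± 0.68, with 1, 3 and 15 counts in WT and 28, 15 and 38 in shrek1. Leaving out WT libraries gave 1.77 without replicate 1, 1.97 with the call lost (adjusted p = 0.0554) without replicate 2, and 3.77 without replicate 3.

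The kernels hold several tissues, and fewer cells of a type cannot be told apart from less RNA per cell. The shares of all tested genes, 32% higher and 32.4% lower, apply to each count of marker genes below. Of 8 embryo marker genes 7 fell, and their summed level was 6200 to 7849 CPM in WT and 103 to 118 CPM in shrek1. The mean sum was 63.8 times higher in WT, beside 31.4 times for a2 and at least 14.6 times for c2, and the storage globulin gene glb2 had no count in shrek1. In WT, ole1 (3886 CPM) and glb1 (LOC732801, 2112 CPM) had the largest means in that sum. Single embryo genes that fell and had counts in both genotypes ranged from -3.61 (kn1) to -8.47 (LOC732801) on the log2 scale. A second gene with the symbol glb1, LOC541815, was not called (-0.065). Of 5 matched aleurone marker genes 3 rose and 2 fell, with sums of 455 to 512 CPM in WT and 704 to 916 CPM in shrek1. The largest rises in this sum were those of nkd1 (mean 180 CPM in WT and 377 in shrek1) and nkd2 (74.9 and 200). The mean of sal1 went from 110 to 129 CPM, while dek1 (93.3 to 63.7 CPM) and cr4 (18.8 to 11.3 CPM) fell. The only matched pericarp marker, p1, had 1 count, in WT replicate 1. Starchy endosperm markers summed to 84978 to 114411 CPM in WT and 54330 to 72647 CPM in shrek1, with 6 of 10 tested genes higher and 3 lower. Zein storage protein genes had the largest levels in this sum, with WT means of 37049 CPM for gz27 and 31841 CPM for bz15. The 3 lower genes were the zein genes gz50, gz16 and bz15, and gz27 was not called. The 6 higher genes were o2, pbf1, sh2, bt2, bt1 and ae1. Of 7 transfer layer markers 5 were tested and 1 rose, betl2 (log2 fold change 3.07 ± 0.79), with sums of 23.2 to 41.5 CPM in WT and 33.5 to 79.7 CPM in shrek1, and betl1 had no count. Of 3 markers of the embryo-surrounding region 1 was tested and not called, with sums of at most 1.61 CPM in WT and 2.78 CPM in shrek1. The part of these markers in the fall of c2 and a2 was not tested.

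The genes most alike in pattern were those with the highest Pearson correlation of log2 CPM over the 6 libraries, among 12110 tested genes with a mean of at least 10 CPM. The difference between genotypes enters each of these correlations, which are a description only. For c2 they were LOC100191460, a phosphoenolpyruvate carboxylase gene, LOC100277219 and the ABC transporter-like gene LOC100383541, at 0.9995 to 0.9998, and 1518 genes had a correlation above 0.95. For a2 they were LOC542710, a ferredoxin-dependent glutamate synthase gene, the glycolipid transfer-like gene LOC100283524 and the thaumatin-like gene LOC100281263, at 0.9995 to 0.9998, with 1546 genes above 0.95. For LOC100285351 they were the nucleolin gene LOC100194303, the 60S ribosomal protein L7 gene LOC100282330 and LOC100284463, at 0.9997 to 0.9998, with 3435 genes above 0.95. For bz1, LOC100381598, LOC100282894 and LOC100283631 were the only 3 genes above 0.95, at 0.959 to 0.978.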

How the data were processed

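RNA-seq libraries of peeled kernels, 3 of WT and 3 of shrek1, were grouped by their titles. The deposited count table holds raw counts per gene, made with HISAT2 2.0.5 and featureCounts 1.5.0-p3 per the submitters' processing notes, with no stated role or strand setting. The deposited FPKM values equal these counts divided by gene length and a single depth factor for each library, proportional to DESeq2 size factors. Counts were filtered with filterByExpr, scaled with TMM (factors 0.864 to 1.16) and tested with edgeR 4.0.16 in R 4.3.3 (quasi-likelihood, robust, two-sided, Benjamini-Hochberg over all genes tested, threshold 0.05). SE were derived from the fold change and F value, and 95% intervals from the SE and the t distribution. DESeq2 1.42.0 and limma 3.58.1 served as alternatives. In simulated counts, the share of false calls came out above the threshold, and the cause was not found. That excess bears on calls close to the threshold and on the counts of called genes. Counting intervals and floors (3 counts) cover counting error only, and duplicate reads are counted separately. Named genes are the members, every pathway gene matched by symbol, the gene of most CPM matched by description for each role, and the 3 genes most alike in pattern. The other Tim10/DDP genes and single marker genes were named after their values were seen. Of 34 symbols, 15 matched. The members and lists were chosen with earlier results of these data known. The gene mutated in shrek1 was not matched to an identifier, so the labels were not checked with it.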

Additional observations from a re-analysis of the deposited data

How the results depend on the processing

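The fold changes of the 4 genes were recomputed with library size only, DESeq2 size factors, upper-quartile scaling, DESeq2's own test, no filter on low counts, the replicate block, an offset for gene length, limma-trend on log2 of FPKM plus 1 and plus 0.1, and without each library in turn. The calls of c2, a2 and LOC100285351 kept their direction and stayed past the threshold in all of these, and bz1 passed in none. The only value that turned was that of bz1 without shrek1 replicate 3, at 0.093, so that leaving out single libraries gave -0.67 to 0.093. LOC100285351 ranged from 2.29, with the offset for gene length, to 3.10. On log2 of FPKM plus 1, a pseudocount near their WT level, c2 and a2 stood at -1.28 and -1.30. With library size as the only scaling, the median over all genes moved from -0.014 to -0.30 (-0.15 with upper-quartile scaling), 9 genes of the flavonoid list rose and 25 fell, LOC100285351 was at 2.77 and bz1 at -0.56. Same-numbered libraries of the genotypes deviated together with correlations of 0.0952, -0.0497 and 0.0282, so the numbers were not taken to pair them. The replicate block gave 12 higher and 22 lower list genes and bz1 at -0.39. At 1 count per 0.0472 to 0.0618 CPM, c1, pl1, r1, whp1, fht1 and bz2 were too low for a difference to be measured.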
